A study of Homo sapiens with 6 samples.

Results

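The postsynaptic scaffold genes described here are 4 members of the DLG family (DLG1, DLG2, DLG3, DLG4), 4 of the DLGAP family (DLGAP1, DLGAP2, DLGAP3, DLGAP4) and 2 of the SHANK family (SHANK2, SHANK3), 10 of 20037 protein-coding genes in the RefSeq gene table of GRCh38.p14. The genes were chosen by name with their peaks in these data already known, and their peaks were selected by position: every peak in the gene body or within 60 kb of either end. The peaks came from CUT&RUN, in which a nuclease tethered by an antibody cuts out the DNA around a chromatin protein, in wild-type H1 cells (a human embryonic stem cell line) on day 30. According to the series' design text these were cortical interneurons made from the stem cells, although the cell type entered for each sample is the stem cell itself. The groups are 4 MYT1L antibody libraries and 2 control libraries made with IgG, all from this 1 line, labelled wild type. Peak lists carry no RNA values, so the identity of the cells could not be checked against marker genes, and the labels do not say whether replicates came from separate cultures. The windows of the 10 genes do not overlap and cover 6.79 Mb. They held 174 of the 49028 places on chromosomes 1 to 22, X and Y where at least 1 MYT1L library had a peak.

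DLG proteins are membrane-associated guanylate kinases: their PDZ, SH3 and guanylate kinase-like domains hold glutamate receptors, potassium channels and adhesion proteins under the synaptic membrane. DLGAP proteins (also called SAPAP or GKAP) bind the guanylate kinase-like domain of the DLG proteins, and SHANK proteins bind the DLGAP proteins and pass the contact on to Homer proteins and actin, so that the 3 families form layers of the postsynaptic density. MYT1L is a zinc-finger transcription factor of neurons, known chiefly as a repressor of non-neuronal genes, whose fingers recognise the core AAGTT.

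Throughout, peaks of the MYT1L libraries that shared at least 1 bp were joined into a region. Reproducible regions are those with peaks from 3 or all 4 MYT1L libraries, and a region is IgG-free where neither IgG list had a peak on it. The fold of a peak is the authors' enrichment over background, a linear ratio, and the mean fold of a region is taken over the libraries that had a peak. Coordinates are those of hg38, counted from 1. Because the members' peaks were what the choice rested on, counts and folds are given as description and no p-value is attached.

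The sequences below are shown because they lie under or beside the regions that the start results turn on: the upstream stretches of DLG1, DLG2 and DLGAP4, inside reproducible regions, and that of SHANK3, where no MYT1L library had a peak. They are from the RefSeq promoter table of GRCh38.p14, read 5′ to 3′ on the strand of the gene, with each CG in capitals.
DLG1, chr3:197298136-197298385, minus strand: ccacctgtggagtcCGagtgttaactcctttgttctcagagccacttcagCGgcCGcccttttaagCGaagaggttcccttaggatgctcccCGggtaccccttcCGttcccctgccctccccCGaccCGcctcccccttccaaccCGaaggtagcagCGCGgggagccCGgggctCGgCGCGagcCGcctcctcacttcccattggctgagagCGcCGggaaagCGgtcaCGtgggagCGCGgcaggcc
DLG2, chr11:85628374-85628572, minus strand: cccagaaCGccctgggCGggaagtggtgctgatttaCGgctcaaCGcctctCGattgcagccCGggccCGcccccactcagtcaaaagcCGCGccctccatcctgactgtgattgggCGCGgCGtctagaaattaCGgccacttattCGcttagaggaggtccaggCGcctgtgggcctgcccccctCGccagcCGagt
DLGAP4, chr20:36461218-36461467, plus strand: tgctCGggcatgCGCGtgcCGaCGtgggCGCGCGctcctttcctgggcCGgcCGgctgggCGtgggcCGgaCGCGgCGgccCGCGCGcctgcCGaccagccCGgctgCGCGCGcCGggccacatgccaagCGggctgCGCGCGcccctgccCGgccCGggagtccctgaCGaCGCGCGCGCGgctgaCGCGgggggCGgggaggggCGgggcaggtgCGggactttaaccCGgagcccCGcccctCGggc
SHANK3, chr22:50672573-50672822, plus strand: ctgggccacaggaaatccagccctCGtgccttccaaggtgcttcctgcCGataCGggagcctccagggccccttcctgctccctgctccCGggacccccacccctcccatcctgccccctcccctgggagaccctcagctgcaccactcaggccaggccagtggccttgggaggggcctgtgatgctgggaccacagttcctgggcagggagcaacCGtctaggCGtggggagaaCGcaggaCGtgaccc
The 250 bases of DLG1 held 22 CG, an observed-to-expected CpG ratio of 0.796. The 199 bases of DLG2, which run up to the start of the divergent neighbour TMEM126B, held 17 (0.822), and the 250 bases of DLGAP4 held 44 (1.04). The 250 bases of SHANK3 held 8 (0.279). These 4 stretches are examples, and the ratio did not separate the member starts cleanly. Over promoters of 300 bases, the outermost start of DLGAP4, with no reproducible region, had 0.833, and that of DLG3, with one, had 0.515. Medians over all the listed member promoters are given further below. None of the 4 stretches contained AAGTT on either strand.

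Peaks in the 10 windows numbered 87, 44, 58 and 106 in MYT1L replicates 1 to 4 (73.8 ± 28.0, SD, n = 4), and 0 and 1 in the IgG replicates. The number followed the length of the lists, which held 27926, 12310, 18966 and 30086 peaks for MYT1L and only 976 and 998 for IgG. As a share of its list, each MYT1L library placed 0.312%, 0.357%, 0.306% and 0.352% of its peaks in the windows (0.332 ± 0.0269%, SD, n = 4), against 0% and 0.100% for IgG. At the mean MYT1L share, lists as short as those of IgG would hold 3.24 and 3.31 peaks, so the IgG lists leave little room to see fewer. When every list was cut to its 976 strongest peaks, the MYT1L libraries had 3, 6, 2 and 2 peaks in the windows and IgG 0 and 1. Read numbers are not given in the sources used here, and peak-list length is the only guide to depth.

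By number, DLGAP2 had the most peaks, with 44, 24, 22 and 36 peaks in the 4 MYT1L libraries, between 34.0% and 54.5% of all the peaks counted for the 10 genes. In every MYT1L library its count exceeded that of each other member. DLGAP1 had 6, 3, 6 and 13 peaks, DLG2 had 6, 4, 8 and 9, SHANK3 had 6, 4, 6 and 9, and SHANK2 had 8, 5, 3 and 8. The next 2 were DLG4, with 6, 2, 5 and 9, and DLGAP3, with 4, 0, 5 and 8. The 3 lowest were DLGAP4 (2, 1, 1 and 7), DLG1 (3, 1, 1 and 4) and DLG3 (2, 0, 1 and 3). Below DLGAP2, the counts of neighbouring genes in this order overlapped over the 4 libraries. Windows differ in length, from 153 kb for DLG4 to 2293 kb for DLG2, and per Mb the order was another. DLG4 had on average 35.98 MYT1L peaks per Mb of window and SHANK3 had 34.6, both above the 28.9 of DLGAP2. In reproducible IgG-free regions per Mb of window, DLG4 had 26.2, SHANK3 22.2 and DLGAP2 16.5, while DLG2 had the fewest, 0.872. The gene body held 1 of the 4 such regions of DLG4, 0 of the 4 of SHANK3 and 16 of the 18 of DLGAP2, and the rest were in the flanks. The only IgG peak in any of the windows lay in DLG4, in IgG replicate 2.

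**Figure D1:**
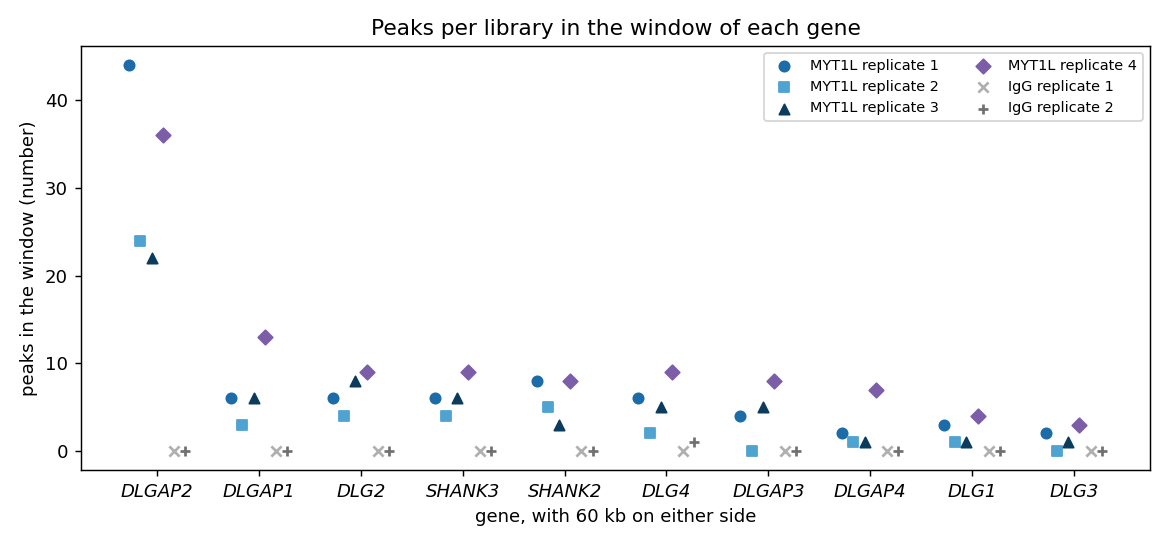
Number of peaks (vertical axis) in the window of each gene (horizontal axis, gene body with 60 kb on either side), 1 point per library. DLGAP2 has 22 to 44 MYT1L peaks, every other gene at most 13, and IgG has 1 peak in the window of DLG4 and none elsewhere.

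Per Mb, the windows held 12.8, 6.48, 8.55 and 15.6 MYT1L peaks, which was 1.10, 1.20, 1.08 and 1.18 times the density over the windows of all protein-coding genes (1.14 ± 0.0615, SD, n = 4). Of the 174 regions, 40 were reproducible, which is 23.0%, against 25.1% of all 49028 MYT1L regions. Over all coding windows the share was 27.0% (10606 of 39233), and for the members without DLGAP2 it was 21.8%. Of the 40, the 39 that were also IgG-free came to 5.75 per Mb, against 5.17 per Mb over all coding windows. DLGAP2 accounted for 18 of them, and without it the density was 3.69 per Mb, below the value for all coding windows. The members were also below the background when the bodies alone (4.65 against 6.82 per Mb) or bodies with 20 kb (4.84 against 5.81) were counted. The same order held with all 4 libraries required (2.21 against 2.42), with a −log10 q of at least 5 (2.51 against 2.90) and with each MYT1L list cut to its 12310 strongest peaks (2.36 against 3.16). Whether the members lay above or below the background thus depended on the setting. Of the 39 regions, 15 were in all 4 libraries and 24 in 3, beside 5030 and 6061 of all 11091 reproducible IgG-free regions. MYT1L replicate 2, with the shortest list, lacked 14 of the 39 (35.9%), close to its 35.4% over all such regions. Their median mean fold was 6.06 and their median width 779 bp, beside 6.29 and 794 bp for all 11091 reproducible IgG-free regions. By position, 7 lay at a start of a member, 5 at an end of another coding gene, 18 elsewhere in a member's body and 9 elsewhere in the flanks. Of the 18 in bodies, 14 were in DLGAP2.

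A start was taken as the gene's 5′ end or any transcript start of the promoter table, and both ends were used for DLGAP2, DLGAP3 and SHANK2, whose strand is not in that table. The number of starts searched differed, from 1 for SHANK3 to 9 for DLG2, and more starts give a gene more chances to be counted. The promoter table listed 28 promoters for 7 members and 22183 for all coding genes. DLG4 and DLGAP4 were counted only through an inner start. Within 1 kb of a start, 7 of the 10 members had a reproducible IgG-free region (DLG1, DLG2, DLG3, DLG4, DLGAP1, DLGAP2 and DLGAP4), and 40.7% of all coding genes did. With all 4 libraries required, 3 members remained (DLG1, DLG2 and DLGAP2), against 21.2% of coding genes. At the outermost 5′ end alone there were 5 members (DLG1, DLG2, DLG3, DLGAP1 and DLGAP2), against 38.1%. The same 5 had a region within 5 kb of an end, against 44.2%. Other settings lowered the number of starts: with a −log10 q of at least 5, or with lists of equal length, only DLG1, DLG2 and DLGAP1 were left, beside 26.0% and 29.0% of coding genes. Except for the first, these counts lie within 2 genes of what the background share gives for 10 genes.

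Among the DLG genes, DLG2 (PSD-93, which clusters glutamate receptors and potassium channels) had the highest mean fold at a start. Its region, chr11:85627623-85628748, had folds of 7.78, 7.0, 6.34 and 8.02 (7.29 ± 0.768, SD, n = 4), with no library far from the others. It spans the 5′ end of the gene and that of TMEM126B, a mitochondrial complex I assembly factor read in the other direction, so the signal cannot be given to either gene alone. Over the 4238 other coding genes with a 4-library start region, the nearest patterns of fold, by root mean square difference on the log2 scale over the 4 libraries, were TMEM126B itself (the same region), ATP2B1 (0.0552) and BTD and HACL1, which share a region (0.0578). The 4 libraries are replicates of the same group, so this likeness covers only height of fold and replicate spread and shows no shared control. DLG1 (SAP97, which traffics AMPA and NMDA receptors and also works in epithelia) had a region at chr3:197297497-197298719 with folds of 6.45, 5.91, 6.70 and 9.07 (7.03 ± 1.40). Replicate 4 was the highest there. The region covered 3 of the 5 listed DLG1 starts and the antisense RNA gene DLG1-AS1, and it was the only reproducible region in the DLG1 window.

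DLG3 (SAP102, abundant at young synapses) had its single reproducible region at its 5′ end, chrX:70444503-70445389, with folds of 4.75, 4.42 and 5.57 in replicates 1, 3 and 4 and no peak in replicate 2. DLG4 encodes PSD-95, the main scaffold of excitatory synapses. Its outermost 5′ end had a peak in replicates 2 (5.56) and 4 (6.06) only and so was not reproducible. An internal start had a reproducible region at chr17:7204766-7205369, its near edge 14.7 kb inside the gene, with folds of 3.87, 4.15 and 6.61 in replicates 1, 3 and 4. A further region inside DLG4, chr17:7214144-7215370, had folds of 3.97, 4.85 and 5.60 in the same 3 libraries and also a peak of fold 5.32 in IgG replicate 2. It was the only reproducible region of the 10 windows with an IgG peak. Thus DLG1 and DLG2 had a start region with peaks in all 4 libraries. The reproducible start regions of DLG3 and DLG4 lacked replicate 2, although replicate 2 had a peak at the outermost 5′ end of DLG4.

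Among the DLGAP genes, DLGAP1 (the founding member, GKAP) had a region on its 5′ end at chr18:4454814-4455638 with folds of 6.79, 5.61 and 7.68 in replicates 1, 3 and 4. DLGAP2, an autism candidate gene, had a region on its low-coordinate end at chr8:737082-738061 with folds of 4.32, 4.22, 4.27 and 5.58 (4.60 ± 0.657). DLGAP3, loss of which causes compulsive grooming in mice, had a peak on its high-coordinate end only in replicates 1 (4.60) and 4 (4.93). DLGAP4 had no region at its outermost 5′ end and 1 at an inner start, with its summit 155 kb downstream, at chr20:36461016-36461827, with folds of 3.79, 5.81 and 6.24 in replicates 1, 3 and 4. SHANK2 and SHANK3 had no peak of any MYT1L library within 1 kb of a start. The nearest peaks lay 1.13 kb inside SHANK2, in replicates 1 and 4, and 2.04 kb inside SHANK3, in replicates 3 and 4, with mean folds of 4.34 and 4.91. DLG1, DLG2 and DLGAP2 therefore had a single start region with peaks in every MYT1L list. DLG4 had a start peak in every list only when its inner and outermost starts were both counted. SHANK2 and SHANK3 had a start peak in none. SHANK2 was searched only at its 2 ends and SHANK3 at 1 start.

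**Figure D2:**
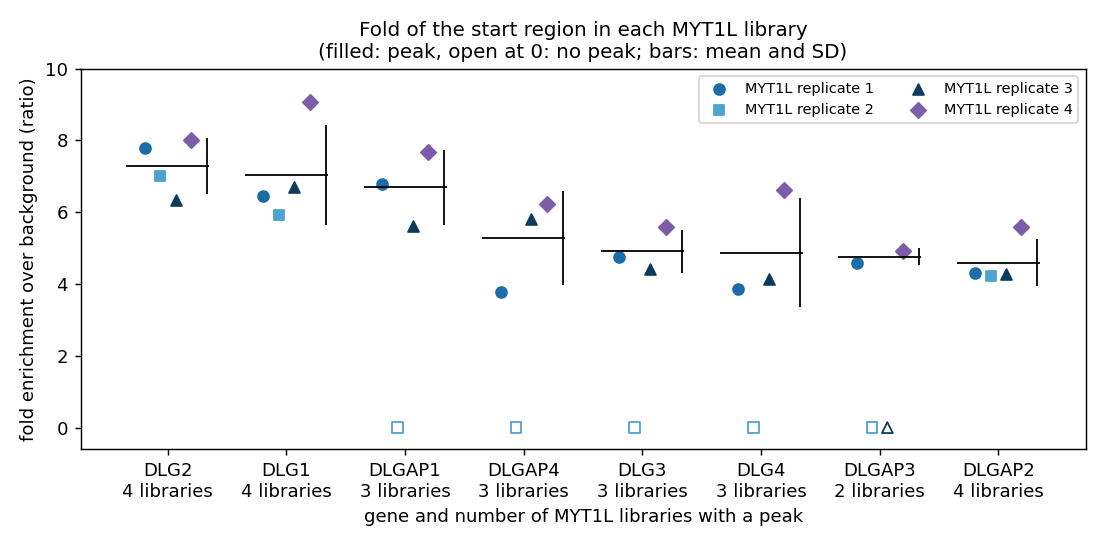
Fold over background (vertical axis, linear ratio) of the region at the start of 8 members in each MYT1L library; filled symbols are peaks, open symbols at 0 mark libraries without a peak, and bars give the mean and SD over the libraries with a peak. DLG2 and DLG1 have the highest means (7.29 and 7.03), and the 5 plotted regions short of 4 libraries lack a peak in replicate 2.

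Of the 28 promoters listed for 7 of the 10 members (250 bases before to 50 after a start), 7 overlapped a reproducible IgG-free region: 3 of DLG1 and 1 each of DLG2, DLG3, DLG4 and DLGAP4. This was 25% of the listed member promoters, beside 35.4% of coding promoters and 26.9% of all promoters. The 3 of DLG1 lay in the same region. The median observed-to-expected CpG ratio of these 7 was 0.588, against 0.361 for the other 21. Over all coding promoters the medians were 0.875 with a region (7859 promoters) and 0.508 without (14324). The core AAGTT, searched on both strands, was in 9 of the 28 member promoters and in 3 of the 7 with a region, all of DLG1. The DLG1 promoters chr3:197298527-197298826 and chr3:197298563-197298862 overlap, so the same match can count for both. The core was in 34.0% of all 35116 promoters and in 30.1% of coding promoters. It was in 20.5% of coding promoters with a region and in 35.3% of those without. The longer core AAAGTTT, which contains AAGTT, was in 1 member promoter, that of DLG1, and in 4.28% of all promoters. The match lies just after the DLG1 start shown above, 28 bp from it and 201 bp from the summit of the strongest peak, and is printed with the core in capitals.
DLG1 core, chr3:197298092-197298121, minus strand: catcttggcggAAAGTTTcgggggagagcg
These matches are descriptions of letters in a window and identify no binding site.

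Away from the starts, the 5 reproducible regions of the members with the highest mean folds were in the flanks of DLGAP1 and SHANK3 and in the body of DLGAP2. The strongest of all lay 55.4 kb beyond the 5′ end of DLGAP1, at chr18:4510716-4511027, with folds of 24.0, 12.6, 14.2 and 24.4 (18.8 ± 6.26, SD, n = 4). Replicates 1 and 4 were higher than 2 and 3. By mean fold it ranked 7 of the 5030 IgG-free regions found in all 4 libraries, and within each library it was among the top 1.21% of peaks by fold. Its peaks were narrow, 236 to 311 bp. No coding gene end lay within 1 kb of it. Inside DLGAP1 there were 3 more reproducible regions besides the start. The region chr18:3879120-3880068, over the antisense RNA gene DLGAP1-AS3 and 4.36 kb from a listed start, had folds of 6.56, 7.09, 6.83 and 6.29. The other 2 were at chr18:3740782-3741538 (mean fold 7.82 in 3 libraries) and chr18:3498945-3499303 (5.66 in 3 libraries), the latter 2.91 kb from the 3′ end.

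DLGAP2 carried reproducible IgG-free regions along most of its length: 16 in the body of 971 kb, with a median spacing of 50.6 kb (range 5.10 to 138 kb). The strongest was at chr8:1449482-1450466, with folds of 10.7, 12.5, 8.83 and 11.3 (10.9 ± 1.54, SD, n = 4). The next was at chr8:977770-978647, with folds of 9.66, 9.55, 9.25 and 12.6, at an end of the predicted gene LOC124905441. The third, chr8:801935-802455, had 9.64, 10.5, 4.94 and 8.37. Beyond these 3, no reproducible region of the body reached a mean fold of 8. In DLG2 and SHANK2, which are also long, the body held 1 reproducible IgG-free region each. That of DLG2 was the start region, and the other 12 regions over the gene were in 1 or 2 libraries. That of SHANK2 was chr11:71154952-71155377, with folds of 4.16, 5.80 and 4.02 in replicates 1, 2 and 4.

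**Figure D3:**
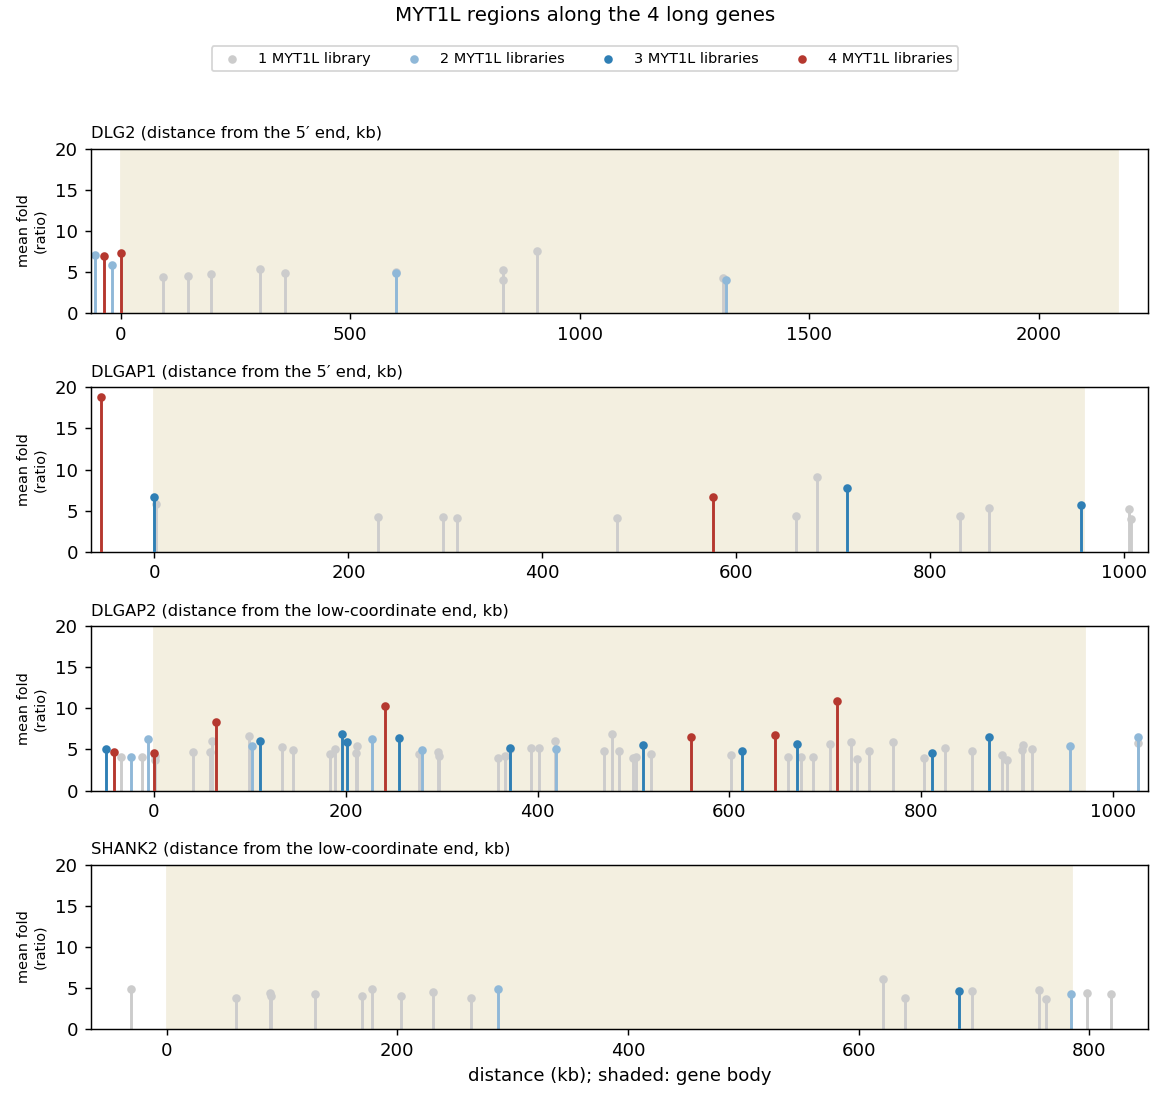
MYT1L regions along the 4 members longer than 500 kb: horizontal axis, distance of the summit from the 5′ end (DLG2, DLGAP1) or from the low-coordinate end (DLGAP2, SHANK2) in kb, with the body shaded; vertical axis, mean fold; colour, number of MYT1L libraries with a peak. Regions in 3 or 4 libraries are spread through DLGAP2, while the tallest line, 18.8, stands 55.4 kb outside DLGAP1.

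Set beside all 315 coding genes of at least 500 kb, DLGAP2 had the highest density of such regions in the body, 16.5 per Mb, where the median gene had 1.5 and 81 genes had none. DLGAP1 had 4.17 per Mb (rank 20), SHANK2 1.27 (rank 190) and DLG2 0.460 (rank 233). By peaks per Mb of body in single MYT1L libraries, DLGAP2 had 40.2, 21.6, 17.5 and 31.9, ranks 2, 1, 3 and 3 of 315, beside medians of 3.82, 1.58, 2.67 and 4.18. Neither IgG library had a peak there, but at the mean MYT1L share their short lists would hold 1.44 and 1.47 in its window. DLGAP2 lies 729 kb from the outermost gene coordinate of its chromosome. The 8 long genes within 2 Mb of such a coordinate, a grouping made after their values were seen, had a median of 4.04 regions per Mb, and the other 307 had 1.48. ADARB2 (16.1 per Mb) and PTPRN2 (6.67 per Mb) were also in this group, and MYT1L itself (1.84 per Mb) and OPCML (0.895 per Mb) were at its lower end. Whether the place on the chromosome bears on the DLGAP2 count was not tested.

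**Figure D4:**
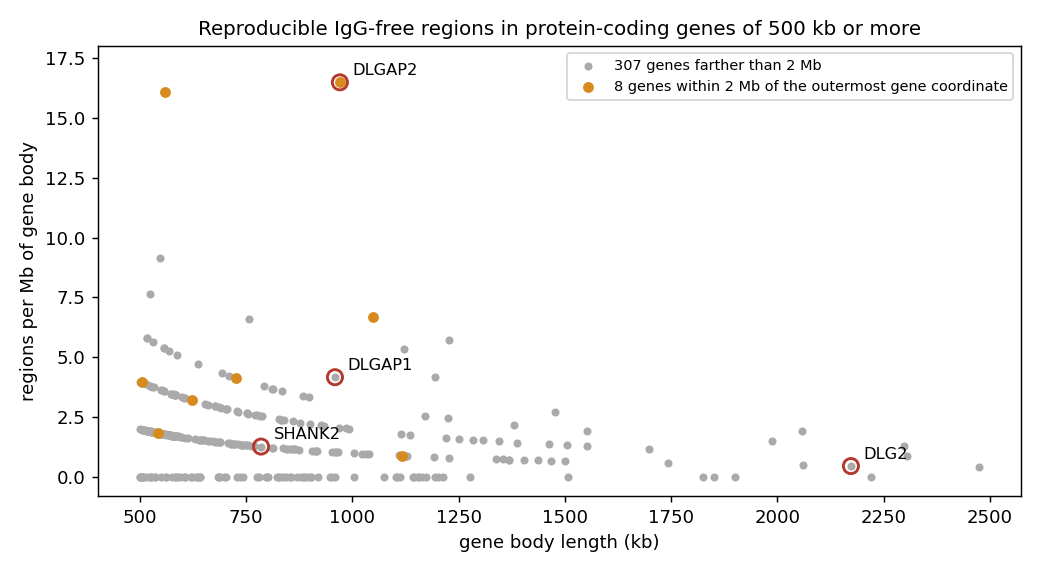
Reproducible IgG-free regions per Mb of body (vertical axis) against body length in kb (horizontal axis) for 315 coding genes of at least 500 kb, 1 point per gene; orange, the 8 genes within 2 Mb of the outermost gene coordinate of their chromosome; circles, the 4 members. DLGAP2 is highest at 16.5 per Mb and DLG2 lies at 0.460 per Mb.

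In the shorter genes most of the remaining reproducible regions were in the flanks, where neighbours share the window. SHANK3, a scaffold gene lost in Phelan-McDermid syndrome, had 4 and none in its body. The region chr22:50643634-50644195, 28.6 kb before its 5′ end, had folds of 9.17, 5.25, 8.56 and 11.6 (8.64 ± 2.60). The region chr22:50783130-50783985, 49.9 kb after its 3′ end, had 5.87, 10.8, 6.94 and 11.7 (8.83 ± 2.85) and lay on the 5′ end of RABL2B. The other 2 were over the pseudogene RPL23AP82 (mean fold 8.38 in 3 libraries) and at an end of ARSA (4.87 in 3 libraries). In the DLG4 window the highest region, chr17:7251295-7252037, with folds of 8.30, 6.65, 6.37 and 12.8 (8.53 ± 2.96), lay on the shared 5′ ends of CTDNEP1 and ELP5, 31.2 kb from DLG4. The DLG4 flanks held 2 more, at the 3′ end of GABARAP (4.24) and 9.62 kb beyond the DLG4 3′ end (4.79). DLGAP3 had 2 flank regions, at 18.04 and 38.0 kb from its high-coordinate end (4.74 and 5.26), both missing from replicate 2. Among the longer genes, DLG2 had a flank region at chr11:85663873-85665189, 35.5 kb upstream, with folds of 7.22, 4.95, 5.36 and 10.2. DLGAP2 had 2 flank regions, 49.4 and 40.7 kb outside its low-coordinate end (mean folds 5.10 and 4.66). Nothing in the lists ties a flank region to the scaffold gene rather than to its neighbours.

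**Figure D5:**
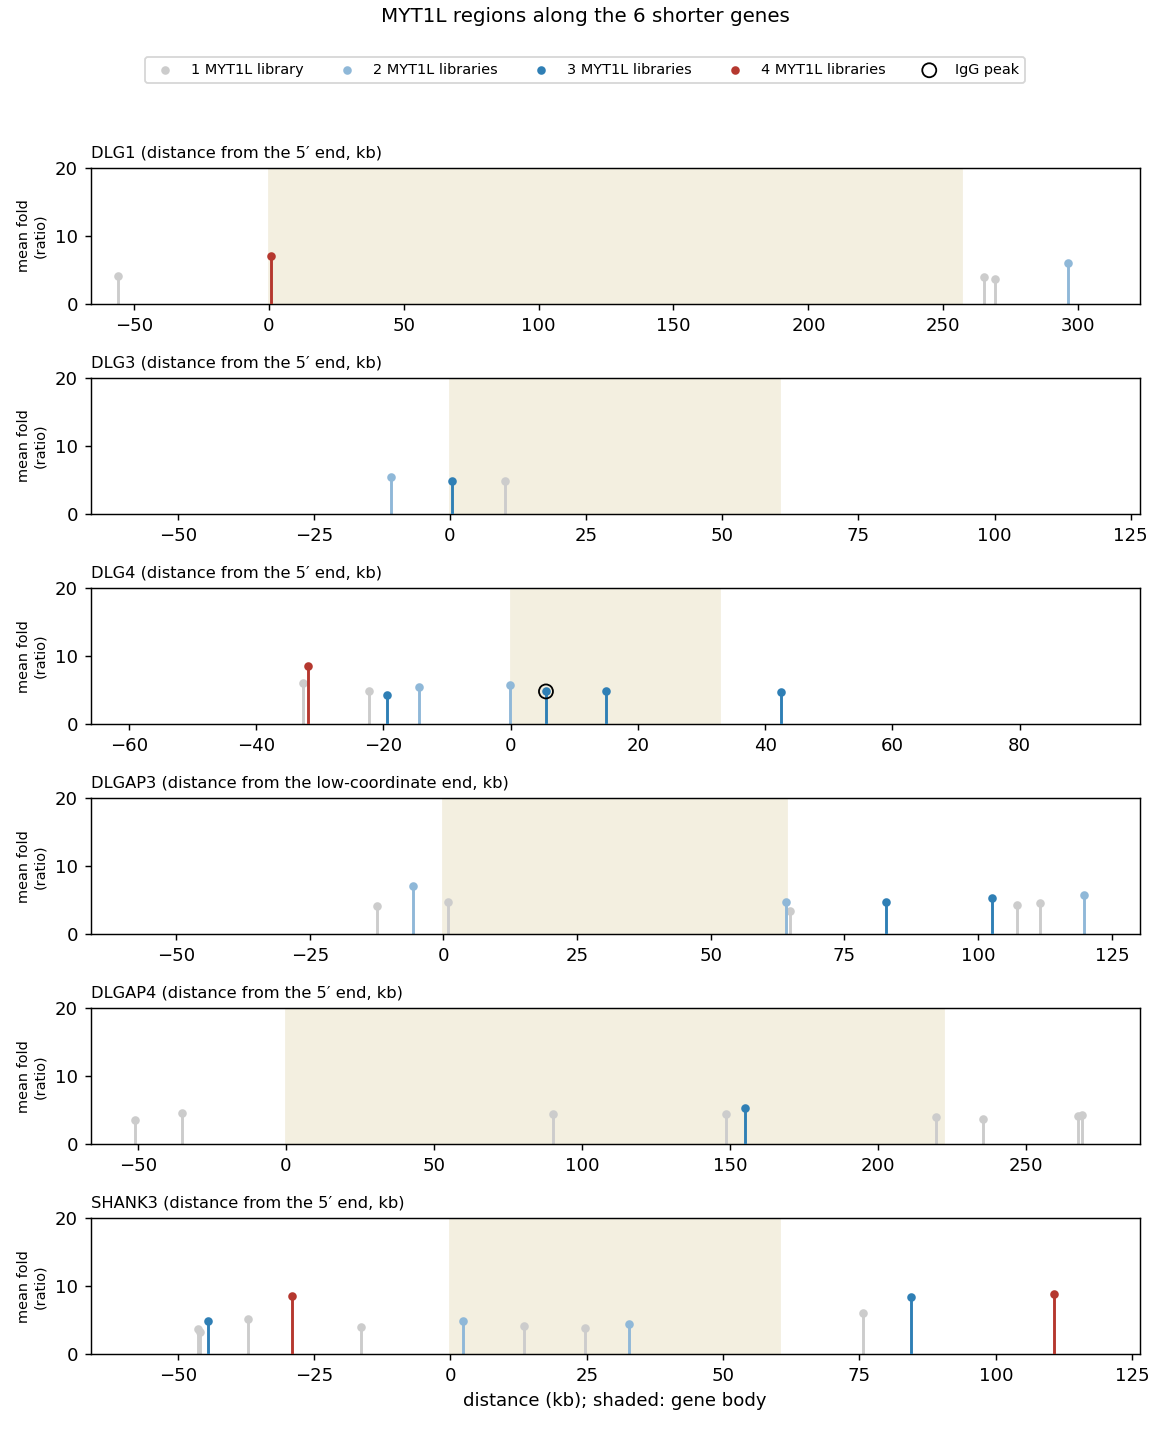
MYT1L regions along the 6 members shorter than 500 kb: horizontal axis, distance of the summit from the 5′ end (low-coordinate end for DLGAP3) in kb, with the body shaded; vertical axis, mean fold; colour, number of MYT1L libraries; black ring, IgG peak. DLG1 and DLG3 have their only reproducible region at the start, and the 4 of SHANK3 are all outside its body.

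The width of the window decided some of these counts. Between 40 and 60 kb from a member, 5 reproducible IgG-free regions were counted, with mean folds of 4.66 to 18.8, among them the DLGAP1 region of highest fold. Just outside, between 60 and 80 kb, there were 4 more with mean folds of 4.53 to 6.58, at 72.5 kb from DLG1, 76.6 kb from DLGAP2, 76.8 kb from DLGAP4 and 69.0 kb from SHANK2. The last is on the end of CTTN, which encodes the actin-binding protein cortactin, a partner of SHANK proteins.

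Other genes of the postsynaptic density were counted in the same way from a list of 34. Of these, 20 (58.8%) had a reproducible IgG-free region within 1 kb of a start and 22 (64.7%) within 5 kb of an end, beside 40.7% and 44.2% of coding genes. In all 4 libraries there were 9, beside 21.2% of coding genes, among them HOMER1, LRRC7, MAGI2, AKAP5 and TIAM1. TIAM1, a Rac exchange factor of dendritic spines, had the highest mean fold of the 9, with 8.75, 9.62, 7.95 and 13.6. HOMER1, which links SHANK proteins to metabotropic glutamate receptors, had 9.71, 5.04, 5.34 and 7.85. SHANK1, the remaining SHANK gene, was among the 22 with a region within 5 kb of an end, while its region within 1 kb of an end had peaks only in replicates 1 (4.43) and 4 (6.48). The start of GPHN, the scaffold of inhibitory synapses, had folds of 6.65, 6.65, 7.92 and 10.9 but also an IgG peak, and so was not counted. The start folds of DLG1 and DLG2 lay inside the range of these 9 genes, whose means ran from 5.19 (LRRC7) to 9.99 (TIAM1).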

How the data were processed

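Each of the 6 libraries had 1 deposited MACS2 peak list on hg38, per the submitters' processing notes; the aligner, thresholds, control and any pooling are not given in the sources used here. Each deposited peak has a fold over background (a linear ratio), a −log10 p, a −log10 q and a score, as made by the authors; the deposited score equals 10 times the deposited −log10 q in at least 99.99% of peaks, and the lowest −log10 q was 2.00 to 2.01. Peak names in the MYT1L lists carry sample numbers 1 higher than the titles, which were followed.

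Peaks on chromosomes 1 to 22, X and Y that shared at least 1 bp were joined into regions (Python 3.11.15, pandas 2.3.3), checked with bedtools 2.31.1 and tested on simulated peaks. The gene table and promoter table are RefSeq GRCh38.p14; promoters matched 7 of 10 members. The 10 genes, the list of 34 and the measures were chosen with earlier results of these data known, so comparisons carry no test and Dixon's ratio only picked out single values. Regions named are the members' start regions, their strongest reproducible regions, further regions of their windows and those just outside. Other genes are named as neighbours, by likeness of fold, among the long genes or from the list of 34. Alternatives were the number of libraries, a −log10 q of 5, equal list lengths, summit distance, window width, IgG regions kept and each library left out. No genome was used, so exons and motifs at summits were not analysed here.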

Additional observations from a re-analysis of the deposited data

Results flagged for a closer look

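In 28 groups of 4 MYT1L values, 3 had a highest value far from the others by Dixon's ratio at its 95% critical value. Chance flags about 1 in 20 such groups, or 1.4 of 28. MYT1L replicate 4 was the far library in each: it had 7 peaks in the DLGAP4 window, against 2, 1 and 1 in replicates 1 to 3. The region at the low-coordinate end of DLGAP2 had a fold of 5.58 in replicate 4, against 4.32, 4.22 and 4.27. The DLGAP2 region from position 977770 had a fold of 12.6 in replicate 4, against 9.66, 9.55 and 9.25. Replicate 4 also had the longest peak list, 30086 peaks. Whether list length bears on these values was not tested.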

How the results depend on the processing

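Of 88 alternatives for the summary values, 57 stayed close to the value reported, as did 46 of 46 for the folds of named regions. Close meant within a factor of 1.5 for density and for counts of regions or genes. It meant inside the 95% confidence interval for the reproducible share, and less than the SD from the reported mean for peak numbers and folds. Leaving out a library cannot shift such a mean by its SD, so those alternatives for peak numbers and folds could not fail. The 39 reproducible IgG-free regions (5.75 per Mb) became 62 (9.14 per Mb, all coding windows 8.63) with 2 libraries required, 15 (2.21, 2.42) with all 4, 17 (2.51, 2.90) with a −log10 q of at least 5, 16 (2.36, 3.16) with the 12310 strongest peaks of each MYT1L library, and 21 (3.69) without DLGAP2, an alternative chosen after seeing the data. Leaving out a MYT1L library, with 2 of the 3 left required, gave 43 to 58 regions and 6.34 to 8.55 per Mb, and leaving out an IgG library gave 39 to 40 and 5.75 to 5.89. The mean of 73.8 MYT1L peaks became 36.5 with the stricter q, 3.25 with the 976 strongest peaks of all lists and 42.3 without DLGAP2, and was 63.0 to 83.7 with a library left out. The 7 members with a start region (all coding genes 40.7%) became 3 with all 4 libraries (21.2%), 3 with the stricter q (26.0%), 3 with equal lists (29.0%) and 4 with summits within 200 bp (31.0%), and 7 to 8 with a library left out (8 without MYT1L replicate 2, 53.7%, or replicate 3, 50.5%). The 5 members with a region within 5 kb of an end (44.2%) became 9 with 2 libraries (60.7%), 3 under each of the other 4 settings just named (22.9% to 34.2%), and 5 to 8 with a library left out (8 without replicate 2, 58.8%, or replicate 3, 55.4%). The reproducible share of 23.0% (all regions 25.1%) became 36.2% with 2 libraries (41.9%), 8.62% with all 4 (12.1%) and 13.4% with summits within 200 bp (16.6%), and 32.3% to 36.9% with a MYT1L library left out (36.05% to 40.8%), since fewer libraries were then required. DLGAP2 ranked 1 or 2 of 315 long genes under every alternative run, and 2 with the stricter q, with equal lists and without MYT1L replicate 3. DLG1 and DLG2 kept a start region under each alternative for the start count, except DLG1 with summits within 200 bp. No paired analysis was possible because no test between groups was run and the MYT1L and IgG replicate numbers mark no stated pairing. The short IgG lists limit what IgG-free means.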
